A study of Mus musculus with 22 samples.

Results

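Primordial germ cells (PGCs) of Tet1-knockout (Tet1-KO) mouse embryos were followed from stage E10.5 (days after mating) to the E12.5 testis. The comparison was chosen by its samples: the 2 libraries of E12.5 male Tet1-KO PGCs against the 2 libraries of E10.5 PGCs labelled Tet1-KO, over every gene of the count table. These are 4 of the 22 RNA-sequencing libraries of the series, and 17567 of the 37991 genes in the table had enough counts to be tested. All 4 came from crosses of Tet1-heterozygous parents that carried the GOF18ΔPE-EGFP reporter, a green fluorescent protein under Pou5f1 (Oct4) control that marks germ cells. RNA of sorted cells from 2 to 6 embryos, 1000 to 8000 cells, was pooled for each library, and the cDNA was amplified for 15 cycles. Embryos were separated by sex from E12.5 on, so the E10.5 pools were not sexed. The groups set beside them were the Tet1 wild types of the same crosses (2 libraries at E10.5 and 2 of E12.5 males) and E12.5 female Tet1-KO PGCs (2 libraries). Each library is a pool of embryos, and the p values measure the spread between such pools.

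PGCs are the precursors of eggs and sperm. After they enter the genital ridge they lose most DNA methylation, and a set of germline genes that methylation holds silent in other cells is switched on. TET1 oxidises 5-methylcytosine and is one of the enzymes known to act on these genes, and the sex-specific programs of the germ line start once the gonad has become a testis or an ovary.

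The 4 libraries held 12327972 to 17188086 counts, within the 9616436 to 25899505 of the 20 libraries fitted together. The E10.5 libraries labelled Tet1-KO had counts for 15535 and 15695 genes, and the E12.5 male Tet1-KO libraries for 16869 and 17827. The E10.5 pair was the least alike of the replicate pairs, with a correlation of log2 CPM across genes of 0.898 (CPM, counts scaled to a common library total), while the E12.5 male pair had 0.957. E10.5 replicate 1 had 0.899 and 0.903 with E12.5 male libraries a and b, as high as with its own replicate. For E10.5 replicate 2 these correlations were 0.883 and 0.886. Tet1 itself was at 44.5 and 102 CPM at E10.5 in the libraries labelled Tet1-KO and at 134 and 76.8 CPM in the wild type, so E10.5 Tet1-KO replicate 2 lay between the wild-type libraries. At E12.5 it was at 79.3 and 84.5 CPM in male Tet1-KO and at 178 and 309 CPM in male wild type. Reads were counted over the whole gene, and the altered part of Tet1 is not given in the sources used here, so these counts do not check the genotype, and every direction below rests on the labels. The summed level of 18 mesenchyme markers was 529 and 1066 CPM at E10.5 and 353 and 239 CPM at E12.5, with E10.5 replicate 2 highest, and only the E12.5 libraries had a marker at 0 (1 marker each). The part of these cells in the changes below was not tested beyond a fit that holds the marker level fixed, and fewer cells of a type cannot be told apart from less RNA per cell. The summed level of 12 germ cell identity markers was 7398 and 4862 CPM at E10.5 and 7797 and 7888 CPM at E12.5.

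Between E10.5 and the E12.5 testis, 25 of 28 germline genes known to be silenced by DNA methylation rose, among them Dazl and Ddx4, and 17 of 40 imprinted genes fell, as did Ldha. By edgeR's quasi-likelihood test at an adjusted p under 0.05, 1094 genes (6.23% of those tested) were higher at E12.5 and 503 (2.86%) were lower, together 1597 (9.09%). Of these, 774 were at least 2-fold higher (4.41% of tested genes) and 436 at least 2-fold lower (2.48%). The median log2 change over all tested genes was 0.03. Of the 1094 genes that rose, 213 had no count in either E10.5 library, and 28 of the 503 that fell had none in either E12.5 library. A total of 449 calls (370 rises and 79 falls) held whichever of the 4 libraries was left out. The count of calls was 732 without E12.5 library a and 634 without E12.5 library b. A fit of the 4 libraries alone, with its own estimate of the spread and 2 residual degrees of freedom in place of 10, called 25 genes. By contrast, a fit of only the 4 male and female E12.5 Tet1-KO libraries called more genes than the full fit, 607 against 70. The E10.5 pair, the least alike of the replicate pairs (correlation 0.898), is in the first of these fits and not in the second. The reason for the difference was not tested. A fit with the mesenchyme marker level as a covariate called 50.

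**Figure D1:**
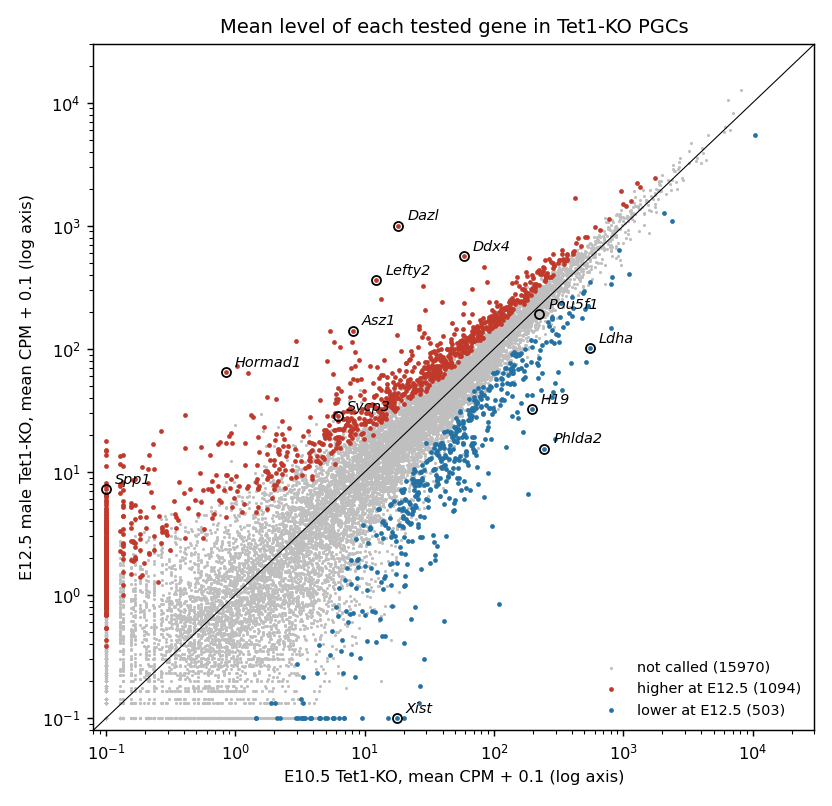
Mean level of each tested gene in E10.5 libraries labelled Tet1-KO (horizontal) and in E12.5 male Tet1-KO libraries (vertical), both as CPM plus 0.1 on log axes, with genes called higher in red, called lower in blue and the line of equal level in black. Dazl, Ddx4 and Asz1 lie far above the line, Phlda2, H19 and Ldha below it, Pou5f1 lies near it, and genes without a count at E10.5 form the column at the left edge.

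Germline genes whose promoters are known to be silenced by DNA methylation formed the group that changed most often. Of 28 such genes, 25 rose (89.3%, against 6.23% of all tested genes) and none fell, with a median log2 change of 3.16. The calls of 21 of the 25 held with each of the 4 libraries left out, and 22 to 25 members were called in any such fit. The fit of the 4 libraries alone called 15 rises over all genes, fewer than these 25, and the fit with the mesenchyme covariate called 42 over all genes. These totals do not give how many of the 25 kept a call. With the covariate 96 of the 112 named genes called in the change lost their call. In the wild type 25 of the 28 genes also rose over the same interval (89.3%, median log2 change 3.8). From E10.5 to the E12.5 ovary in Tet1-KO, which shares the E10.5 libraries, 25 of the 28 rose as well (89.3%, median 3.58). Dazl, an RNA-binding protein needed for germ cells to become competent for sexual differentiation, was at 14.3 and 21.9 CPM at E10.5 and at 968 and 1031 CPM at E12.5. Ddx4 (the helicase Vasa) was at 61.4 and 54.7 CPM at E10.5 and at 525 and 604 CPM at E12.5. Neither gene's libraries overlapped between the stages, and the log2 changes were 5.78 ± 0.50 (SE, n = 2 and 2, edgeR adjusted p = 8.35e-06) and 3.28 ± 0.37 (adjusted p = 1.06e-04). Asz1, a protein of the piRNA machinery on germ cell mitochondria, went from 8.5 and 7.56 CPM to 150 and 132 CPM, a log2 change of 4.13 ± 0.24 with the smallest adjusted p of the comparison (1.82e-07). Tuba3a, a testis alpha-tubulin, went from 18.4 and 8.22 CPM to 257 and 256 CPM (log2 4.27, adjusted p = 1.31e-06), and its near-identical copy Tuba3b can share its reads. Slc25a31, the germ cell ADP/ATP carrier, went from 7.54 and 2.41 CPM to 90.7 and 68.6 CPM, and Rpl10l, a retrocopy of a ribosomal protein gene, from 14.46 and 7.29 CPM to 65.9 and 78.4 CPM. Both rose, with log2 changes of 4.02 and 2.74 (adjusted p = 7.21e-05 and 5.48e-04).

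The 3 members without a call were Hsf2bp, Rhox9 and Dpep3. Hsf2bp, a meiotic recombination factor, was at 49.3 and 14.02 CPM at E10.5 and at 65.7 and 71.0 CPM at E12.5 (adjusted p = 0.0943), so its E10.5 libraries were far apart. Rhox9, an X-linked homeobox gene, was already at 562 and 415 CPM at E10.5 and at 404 and 413 CPM at E12.5 (adjusted p = 0.77). Dpep3 had no count in any of the 4 libraries. At the other end, Brdt, a testis bromodomain protein, and Taf7l, a germ cell transcription factor, were at 0 to 0.0686 CPM at E10.5 and at 5.98 and 8.21 CPM and 3.37 and 1.47 CPM at E12.5. The members with a call that was lost when 1 library was left out were Tex101 (adjusted p = 0.0617 without E10.5 replicate 2), Mov10l1, Tdrd1 and Tex11. Mov10l1 lost its call without E10.5 replicate 1, E10.5 replicate 2 or E12.5 library b, Tdrd1 without E10.5 replicate 2 or E12.5 library b, and Tex11 without either E12.5 library, with adjusted p values up to 0.117, 0.0902 and 0.136.

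**Figure D2:**
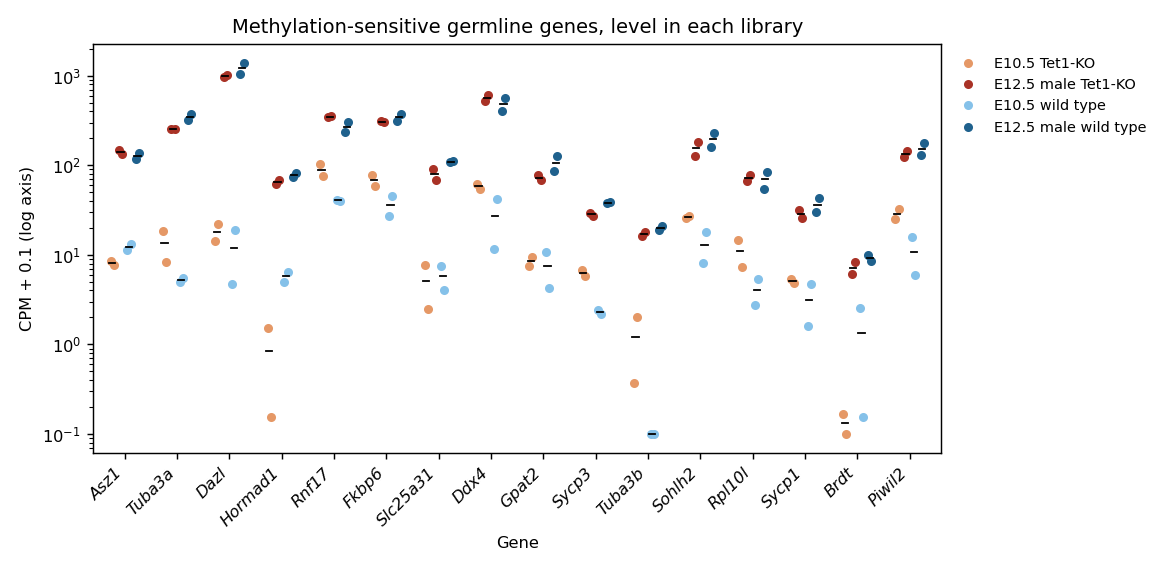
Level of the 16 methylation-sensitive germline genes with the smallest adjusted p in the Tet1-KO comparison, as CPM plus 0.1 on a log axis, with 1 point for each of the 2 libraries of a group and a black bar for their mean. In every gene shown the E12.5 male Tet1-KO points (dark red) lie above the E10.5 points (orange), and for Hormad1 and Brdt the E10.5 points labelled Tet1-KO include values near 0.

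The promoters of 5 of these genes are shown because the group is defined by promoter methylation. Sequences are from RefSeq on GRCm38.p6, 250 bases up to the annotated start, 5′ to 3′ on the gene's strand, and capitals mark CACGTG (an E-box) and GCGGGA or its reverse complement TCCCGC (the core of an E2F-type site), searched on both strands.
Ddx4: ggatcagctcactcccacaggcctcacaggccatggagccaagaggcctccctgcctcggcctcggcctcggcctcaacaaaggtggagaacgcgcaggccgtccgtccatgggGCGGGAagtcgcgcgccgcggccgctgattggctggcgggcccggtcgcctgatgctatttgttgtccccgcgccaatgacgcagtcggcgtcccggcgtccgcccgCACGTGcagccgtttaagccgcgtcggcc
Sycp3: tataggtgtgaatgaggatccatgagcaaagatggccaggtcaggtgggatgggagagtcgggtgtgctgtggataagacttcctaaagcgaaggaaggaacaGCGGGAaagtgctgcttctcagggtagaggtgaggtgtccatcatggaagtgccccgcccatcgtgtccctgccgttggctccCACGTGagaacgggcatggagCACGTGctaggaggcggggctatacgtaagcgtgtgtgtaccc
Mael: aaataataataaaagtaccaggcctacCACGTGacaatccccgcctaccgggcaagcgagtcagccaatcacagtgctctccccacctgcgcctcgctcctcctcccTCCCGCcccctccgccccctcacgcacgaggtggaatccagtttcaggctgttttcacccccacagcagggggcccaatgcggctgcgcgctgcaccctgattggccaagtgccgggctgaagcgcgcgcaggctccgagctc
Dazl: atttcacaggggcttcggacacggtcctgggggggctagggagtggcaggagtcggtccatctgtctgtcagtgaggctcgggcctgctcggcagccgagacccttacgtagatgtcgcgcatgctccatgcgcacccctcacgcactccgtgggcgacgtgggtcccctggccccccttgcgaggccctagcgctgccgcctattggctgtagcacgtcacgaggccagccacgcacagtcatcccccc
Asz1: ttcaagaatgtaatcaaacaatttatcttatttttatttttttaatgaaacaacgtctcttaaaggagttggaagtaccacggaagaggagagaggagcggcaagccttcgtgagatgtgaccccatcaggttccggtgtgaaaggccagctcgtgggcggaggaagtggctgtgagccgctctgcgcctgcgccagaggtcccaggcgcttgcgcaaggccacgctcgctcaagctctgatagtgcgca
The windows are chr13:112652311-112652560 for Ddx4 (minus strand), chr10:88459337-88459586 for Sycp3 (plus strand), chr1:166238745-166238994 for Mael (minus strand), chr17:50293621-50293870 for Dazl (minus strand) and chr6:18109062-18109311 for Asz1 (minus strand). They hold 31, 12, 18, 20 and 15 CpG dinucleotides. Ddx4, Sycp3 and Mael hold at least 1 copy of each motif, and these letters are not in the windows of Dazl and Asz1, which rose as well. Of the 28 methylation-sensitive genes, 24 had a promoter in the table, and 12 of these (50%) held CACGTG in the 250 bases, against 6.9% of all 27025 genes with a promoter and 9.4% of the 12251 tested genes with one. GCGGGA or TCCCGC was in 8 of the 24 (33.3%), against 18.8% and 32%. Both motifs together were in 4 of the 24 (16.7%), against 2% and 3.6%, so the promoters shown hold both more often than the list does. Among the piRNA genes, 10 of 22 promoters (45.5%) held CACGTG, and among the imprinted genes 3 of 32 (9.4%). The tested genes with a promoter are 69.7% of those tested, so their shares cover only part of them.

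The list of the piRNA pathway, which silences transposons through PIWI proteins in the perinuclear nuage, shares members with the germline list. Of 26 members 17 rose (65.4%), 1 fell (3.85%, near the 2.86% of all tested genes) and 8 were not called, with a median log2 change of 2.13. Of these 18 calls 12, all rises, held with each library left out, and Gtsf1, Tdrd7, Exd1, Mov10l1 and Tdrd1 were the rises that did not. Piwil2, the PIWI protein of fetal germ cells, was at 25.4 and 32.1 CPM at E10.5 and at 122 and 145 CPM at E12.5, and rose, with a log2 change of 2.22 ± 0.37 (adjusted p = 0.00193). Piwil4, the nuclear PIWI protein that directs DNA methylation of transposons in the male, had no count at E10.5 and was at 7.32 and 2.54 CPM at E12.5. Tdrd9, its helicase partner, was likewise at 0 and then at 4.04 and 1.601 CPM, and Piwil1, which acts in later spermatogenesis, was at 0, 0, 0 and 0.334 CPM. Rnf17, Fkbp6 and Gpat2, further factors of piRNA production, went from 102 and 75.2, 78.1 and 58.0, and 7.40 and 9.31 CPM to 343 and 355, 309 and 301, and 77.0 and 68.8 CPM. In all 3 the stages did not overlap, and the adjusted p values were 4.83e-05, 6.10e-05 and 1.06e-04. Morc1, a nuclear repressor of transposons, was the member that fell, from 184 and 80.7 CPM to 50.8 and 53.3 CPM (log2 -1.34, adjusted p = 0.0487). That call was lost without E10.5 replicate 1 or either E12.5 library, with an adjusted p of up to 0.337. Nanos2, which directs the male fate, and Dnmt3l, the cofactor of de novo methylation, had no count in any of the 4 libraries.

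Part of the meiotic genes rose. Of 36 tested members of the meiotic prophase list 13 rose (36.1%) and none fell, with a median log2 change of 0.65, and 9 of the 13 calls held with each library left out. Among parts of the synaptonemal complex, the protein ladder between paired chromosomes, Sycp3 was at 6.65 and 5.64 CPM at E10.5 and at 29.5 and 27.1 CPM at E12.5 (log2 2.20 ± 0.26, adjusted p = 1.35e-04). Sycp1 went from 5.21 and 4.77 CPM to 31.6 and 25.5 CPM and Syce1 from 12.3 and 25.3 CPM to 50.9 and 60.4 CPM, and both rose. Among the meiotic cohesins, which hold sister chromatids together, Smc1b rose from 34.6 and 23.7 CPM to 214 and 200 CPM (log2 2.83, adjusted p = 1.88e-05) and Stag3 from 67.6 and 59.7 CPM to 161 and 167 CPM (log2 1.36, adjusted p = 7.85e-04). Hormad1, an axis protein that guards synapsis, went from 1.44 and 0.0548 CPM to 61.3 and 68.2 CPM (log2 6.54 ± 0.59, adjusted p = 1.26e-05). Rec114, a factor of double-strand break formation, rose from 2.40 and 0.329 CPM to 8.42 and 8.81 CPM (log2 2.69, adjusted p = 0.00925), and Hfm1, a helicase of crossover formation, from 8.5 and 6.68 CPM to 46.96 and 19.3 CPM (log2 2.12, adjusted p = 0.00159). Both calls held with each library left out. Stra8, the retinoic acid target that opens meiosis, was at 0.0686, 0, 0 and 0 CPM over the 4 libraries, and its partner Meiosin at 0, 0.438, 0 and 0.133 CPM. Spo11, which makes the double-strand breaks, was at 17.2 and 0.219 CPM at E10.5 and at 13.9 and 6.07 CPM at E12.5, and the strand-exchange protein Dmc1 at 5.21 and 0 CPM and then at 7.996 and 5.80 CPM. Neither was called (adjusted p = 0.974 and 0.323), and E10.5 replicate 1 was high for both. The rises of Sycp2, Tex11, Tex15 and Six6os1 were lost when 1 library was left out (2 or 3 of the 4 libraries each, adjusted p up to 0.0642, 0.136, 0.152 and 0.161).

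The core pluripotency factors that PGCs share with the early embryo were not called. Pou5f1 was at 277 and 171 CPM at E10.5 and at 178 and 206 CPM at E12.5 (log2 -0.22, adjusted p = 0.68), and Nanog was at 202 and 185 CPM and then at 171 and 201 CPM (adjusted p = 0.985). Sox2 was at 81.9 and 99.8 CPM and then at 46.5 and 57.0 CPM (log2 -0.81, adjusted p = 0.0974), without overlap. Of 24 members of the pluripotency list 7 rose (29.2%, against 6.23% of all tested genes) and 1 fell (4.17%, against 2.86%), with a median log2 change of -0.12. Dppa5a, an RNA-binding protein of naive pluripotent cells, went from 498 and 346 CPM to 1690 and 1700 CPM (log2 2.01 ± 0.18, adjusted p = 1.29e-05). Utf1, a chromatin protein, rose from 216 and 155 CPM to 561 and 537 CPM, and Zfp42 (Rex1) from 162 and 113 CPM to 311 and 370 CPM. Tcl1, Dppa4, Fbxo15 and Tdgf1 rose too, by 1.14, 1.25, 0.85 and 2.47 on the log2 scale. Lin28b, which blocks let-7 processing, fell from 35.4 and 42.5 CPM to 17 and 7.20 CPM (log2 -1.69, adjusted p = 0.026). The calls of Fbxo15, Tdgf1 and Lin28b were lost without E10.5 replicate 2 or without E12.5 library b (adjusted p up to 0.0939, 0.0783 and 0.231), and those of Fbxo15 and Tdgf1 also without E12.5 library a. Among 13 early PGC genes none rose, and 1 fell, Alpl, the alkaline phosphatase used to stain PGCs (log2 -1.24, adjusted p = 0.0115, and 0.115 without E12.5 library a).

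Genes of early male germ cell differentiation included the Nodal pathway, which is active for a short time in the fetal testis. Of 18 members 8 rose (44.4%) and none fell. Lefty1 and Lefty2, secreted inhibitors and targets of Nodal, were at 5.48 and 0.219 CPM and at 20.8 and 3.62 CPM at E10.5. They were at 119 and 115 CPM and at 396 and 329 CPM at E12.5, and rose, with log2 changes of 5.40 ± 0.88 and 4.91 ± 0.80 (adjusted p = 0.00159 and 0.00166). The ligand Nodal was at 7.34 and 10.9 CPM and then at 42.7 and 49.3 CPM, without overlap, but was not called (log2 2.33, adjusted p = 0.191). Its co-receptor Tdgf1 (Cripto) rose from 33.3 and 19.1 CPM to 147 and 143 CPM (adjusted p = 0.0161). Piwil4, Tdrd1, Tdrd9 and Rhox10 were also among the 8. In 4 of the 8 (Lefty1, Lefty2, Piwil4 and Tdrd9) the call held with each library left out. Without E12.5 library b, 4 of the 8 were called, and 5 were without E12.5 library a or without E10.5 replicate 2. Rhox10 was called in none of the 4 fits that left out a library (adjusted p up to 0.0997).

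In the list of female germ cell and oocyte genes, which includes the retinoic acid and BMP responses, 5 of 26 members fell (19.2%, against 2.86% of all tested genes). Another 2 rose (7.69%, near the 6.23% of all tested genes). Id1 and Id2, BMP targets that inhibit basic helix-loop-helix factors, went from 83.3 and 77.1 CPM to 18.4 and 14.7 CPM and from 284 and 340 CPM to 86.6 and 43.8 CPM. Msx2, a homeobox target of BMP, went from 27.3 and 26.0 CPM to 4.04 and 1.67 CPM, and Crabp2, a retinoic acid carrier, from 43.3 and 52.8 CPM to 6.06 and 3.40 CPM. These 4 fell, with log2 changes of -2.28, -2.26, -3.23 and -3.35 (adjusted p = 0.00356, 0.00235, 0.00166 and 0.0018), and their calls held with each library left out. Id3 fell from 906 and 708 CPM to 349 and 330 CPM (log2 -1.25, adjusted p = 0.0155), a call lost without E10.5 replicate 1 or either E12.5 library (adjusted p up to 0.105). The members that rose were Sohlh2, a germ cell transcription factor also on the methylation-sensitive list (25.5 and 27.0 CPM to 126 and 183 CPM), and Zglp1, a BMP-induced regulator of the oogenic program (3.63 and 7.23 CPM to 13.6 and 14.7 CPM). The call of Zglp1 (adjusted p = 0.0298) was lost without E10.5 replicate 1 or either E12.5 library, with an adjusted p of up to 0.141. BMP and retinoic acid response genes are also expressed in mesenchyme, whose markers were higher at E10.5, as given above, and the part of mesenchyme in these falls was not tested.

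Of 16 DNA methylation genes 1 rose (6.25%) and 2 fell, a larger share than the 2.86% of all tested genes. Hells, a chromatin remodeller needed for DNA methylation, went from 310 and 266 CPM to 582 and 593 CPM (log2 1.03 ± 0.20, adjusted p = 0.00534). Dnmt1, the maintenance enzyme, was at 350 and 393 CPM and then at 298 and 351 CPM (adjusted p = 0.714). Its recruiter Uhrf1 was at 67.7 and 164 CPM and then at 60.9 and 51.9 CPM, and its call as lower (log2 -1.04, adjusted p = 0.0363) was lost without E10.5 replicate 2 (adjusted p = 0.601) or either E12.5 library. Of 22 genes of TET and demethylation 3 fell (13.6%, against 2.86% of all tested genes) and none rose. Gadd45a, a stress-induced factor linked to demethylation, went from 39.4 and 24.7 CPM to 6.99 and 7.14 CPM (log2 -2.18, adjusted p = 0.00239). Tet2 was at 27.0 and 53.4 CPM and then at 17.7 and 15.5 CPM (adjusted p = 0.0378, and up to 0.321 without E10.5 replicate 2 or either E12.5 library), and Tet3 at 11.5 and 25.6 CPM and then at 5.13 and 2.54 CPM (adjusted p = 0.197). Tdg, the glycosylase that removes oxidised methylcytosine, fell by 1.01 (adjusted p = 0.0198, and up to 0.194 without E10.5 replicate 1 or E12.5 library a). Tet1 was not called (log2 0.16, adjusted p = 0.858). Among 17 subunits and partners of PRC1.6, the Polycomb complex that represses germline genes, 2 rose (11.8%, against 6.23% of all tested genes), Wdr5 and Setdb1, by 0.73 and 0.80. Setdb1 was not called with any 1 of the 4 libraries left out (adjusted p up to 0.151), nor Wdr5 without E12.5 library b (0.0914). Mga, Max, L3mbtl2, Pcgf6 and E2f6 were not called.

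Imprinted genes, which are expressed from the copy of 1 parent, fell more often than any other list of germ cell or chromatin genes. Of 40 members 17 fell (42.5%, against 2.86% of all tested genes) and 1 rose (Usp29), with a median log2 change of -1.38. In the wild type 11 of the 40 fell over the same interval (27.5%, against 3.05% of all tested genes, median -1.17). From E10.5 to the E12.5 ovary in Tet1-KO, which shares the E10.5 libraries, 15 of the 40 fell (37.5%, median -0.92). The difference of the changes between genotypes was called for none of the 40. H19, the maternally expressed non-coding RNA, was at 189 and 204 CPM at E10.5 and at 40.2 and 24.2 CPM at E12.5 (log2 -2.61 ± 0.32, adjusted p = 1.94e-04). Its paternally expressed neighbour Igf2 went from 100.7 and 225 CPM to 50.8 and 22.3 CPM (log2 -2.16, adjusted p = 0.00472, and 0.0617 without E12.5 library b). Both genes were lower in each E12.5 library than in either E10.5 library. Among other maternally expressed genes, Phlda2, a brake on placental growth, went from 311 and 180 CPM to 18.8 and 12.01 CPM, and Meg3, the RNA of the Dlk1 cluster, from 35.2 and 61.9 CPM to 7.07 and 2.54 CPM. Grb10, a growth factor receptor adaptor whose expressed parental copy differs between tissues, went from 188 and 400 CPM to 22.5 and 14.3 CPM. Among paternally expressed genes, Mest went from 212 and 464 CPM to 52.2 and 39.6 CPM, Peg10 from 28.5 and 41.9 CPM to 2.19 and 1.87 CPM, and Peg3 from 842 and 1352 CPM to 392.4 and 416 CPM. Genes expressed from either parent were thus among those that fell. The calls of H19, Phlda2, Grb10, Meg3, Mest, Peg10 and Peg3 held with each library left out. The other 10 calls did not: 11 members fell without E10.5 replicate 2, 10 without E12.5 library a and 8 without E12.5 library b, and 1 fell in the fit with the mesenchyme marker level as a covariate. Usp29, a paternally expressed gene beside Peg3, rose from 3.43 and 3.84 CPM to 15.7 and 8.87 CPM (adjusted p = 0.0221, and up to 0.20 without E10.5 replicate 1, E10.5 replicate 2 or E12.5 library a). In the wild-type libraries, whose mesenchyme marker sums were 2035 and 2323 CPM at E10.5 and 2074 and 1333 CPM in E12.5 males, H19 was at 540 and 613 CPM at E10.5 and at 203 and 100 CPM at E12.5, without overlap.

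**Figure D3:**
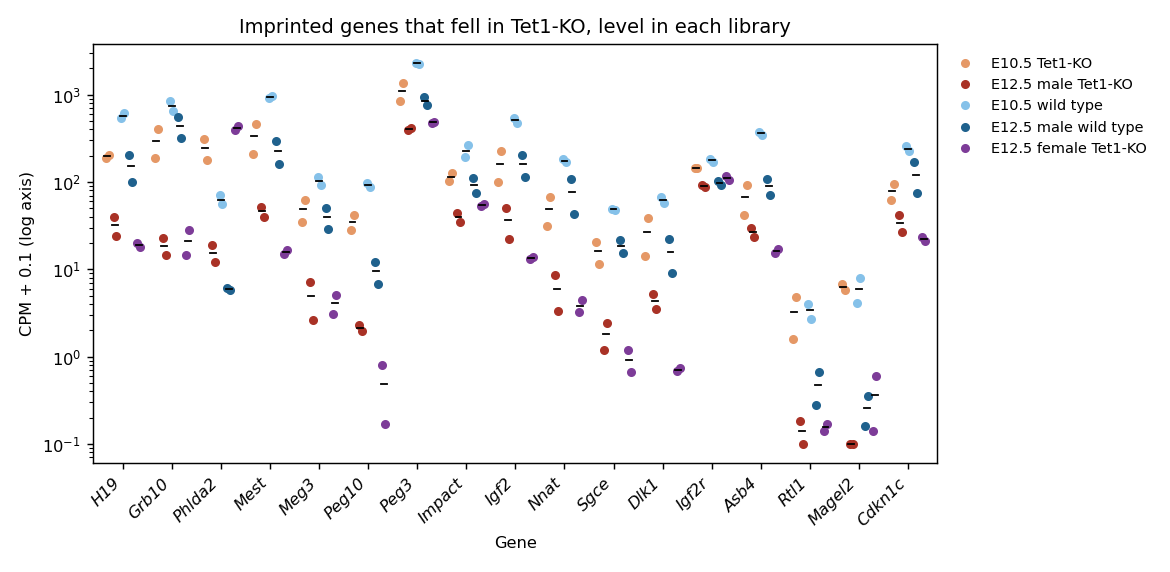
Level of the 17 imprinted genes called lower at E12.5 in Tet1-KO, as CPM plus 0.1 on a log axis, with 1 point for each library, a black bar for the group mean and colours for stage, sex and genotype. The E12.5 male Tet1-KO points (dark red) lie below the E10.5 points (orange) in every gene shown, and Phlda2 in E12.5 female Tet1-KO (purple) lies above them.

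Genes of energy metabolism changed in both directions. Of 20 glycolysis genes 6 fell (30%) and 4 rose (20%). Ldha, the lactate dehydrogenase subunit of glycolytic cells, was at 564 and 534 CPM at E10.5 and at 116 and 85.9 CPM at E12.5 (log2 -2.44 ± 0.23, adjusted p = 1.66e-05). The glucose transporter Slc2a3 went from 809 and 782 CPM to 145 and 148 CPM (log2 -2.44, adjusted p = 7.26e-04), and the triose isomerase Tpi1 from 196 and 151 CPM to 61.2 and 55.8 CPM (log2 -1.57, adjusted p = 0.0015). These 3 calls held with each library left out. Slc2a1, Pgk1 and Eno1 fell by 0.83, 0.75 and 0.68, and Hk1, Pfkp, Ldhb and Pdk1 rose by 1.41, 1.502, 0.71 and 1.15, and each of these 7 lost its call without at least 1 library. Eno1, Pfkp and Ldhb lost it without any 1 of the 4, Pdk1 without E12.5 library b (adjusted p = 0.053) and Pgk1 without E10.5 replicate 1 or either E12.5 library. Slc2a1 lost it without E10.5 replicate 2 or E12.5 library a, and Hk1 without E10.5 replicate 2 or either E12.5 library. Their largest adjusted p values were 0.224, 0.256, 0.188, 0.053, 0.172, 0.283 and 0.0719 for Eno1, Pfkp, Ldhb, Pdk1, Pgk1, Slc2a1 and Hk1. Of 31 nuclear genes of oxidative phosphorylation 2 rose (6.45%, near the 6.23% of all tested genes), Ndufs1 and Atp5g1, by 0.86 and 0.66, and the call of Atp5g1 was lost without E12.5 library a (adjusted p = 0.0627).

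Of 30 genes of the mitotic spindle 1 rose (Nuf2, 3.33%) and none fell. Of 34 DNA replication genes 1 rose (Pole) and 1 fell (Gins3), 2.94% each. Over all tested genes 6.23% rose and 2.86% fell. Each of these 3 calls was lost without E10.5 replicate 2 or either E12.5 library, with adjusted p values up to 0.142, 0.208 and 0.309. Among 24 G1 cyclins and CDK inhibitors 3 fell, a larger share than the 2.86% of all tested genes, and Ccnd2, cyclin D2, went from 185 and 385 CPM to 61.1 and 28.8 CPM (log2 -2.67, adjusted p = 0.00353), a call that held with each library left out. The other 2 were Ccnd3 and the imprinted CDK inhibitor Cdkn1c, and both were lost without either E12.5 library, Cdkn1c also without E10.5 replicate 2 (adjusted p up to 0.1246 for Ccnd3 and 0.31 for Cdkn1c). Of 26 genes of the BCL2 family and p53 response 3 rose (11.5%, against 6.23% of all tested genes) and 1 fell (3.85%, near the 2.86% of all tested genes). Trp53inp1, a p53 target, went from 35.4 and 30.4 CPM to 92.0 and 95.1 CPM (log2 1.51, adjusted p = 0.00433). The others, the p53 regulator Mdm2 and the pro-apoptotic Pmaip1 (Noxa), which rose, and Bad, which fell, lost their calls when 1 library was left out, E12.5 library b in all 3, Mdm2 and Pmaip1 also without E10.5 replicate 2 and Mdm2 and Bad also without E12.5 library a (adjusted p up to 0.108, 0.137 and 0.107).

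Markers of other cells of the early gonad were called in both directions, against 6.23% higher and 2.86% lower over all tested genes. Sertoli markers were called higher in 18.2% and lower in 9.09%, and epithelial markers lower in 50%. Endothelial and macrophage markers were called higher in 16.7% and 20%. Of 18 mesenchyme markers 4 fell (22.2%) and none rose, and all 4 calls (Nr2f2, Pdgfrb, Col3a1 and Prrx1) were lost when 1 library was left out: 1 was called without E10.5 replicate 2, 2 without E12.5 library a, none without E12.5 library b and 7 without E10.5 replicate 1. Of 8 tested epithelial markers of hindgut and coelom 4 fell, with the keratin Krt8 at 33.8 and 33.1 CPM at E10.5 and at 2.78 and 3.14 CPM at E12.5 (adjusted p = 0.0058, and up to 0.0619 without either E12.5 library). The embryonic globin gene Hba-x was at 360 CPM in E10.5 replicate 1, at 6.85 CPM in replicate 2 and at 5.30 and 7.87 CPM at E12.5, so its call rested on replicate 1 and was lost without it (adjusted p up to 1). Of 11 Sertoli markers 2 rose and Clu fell (adjusted p = 0.0372, and up to 0.272 without E10.5 replicate 1 or either E12.5 library). Dmrt1, which germ cells express as well, went from 14.9 and 4.77 CPM to 50.3 and 40.3 CPM (adjusted p = 0.00248), and Ptgds from 0 in both to 1.35 and 4.20 CPM (adjusted p = 0.0216, and up to 0.0873 without E10.5 replicate 2 or E12.5 library b). Markers of endothelium (Esam, Emcn) and macrophages (Csf1r, Tyrobp) that rose were at 0 in both E10.5 libraries and at 0.467 to 3.67 CPM at E12.5. Esam lost its call without E10.5 replicate 2 (adjusted p = 0.051), and the other 3 lost theirs in 3 or 4 of the 4 fits that left out a library (up to 0.178).

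**Figure D4:**
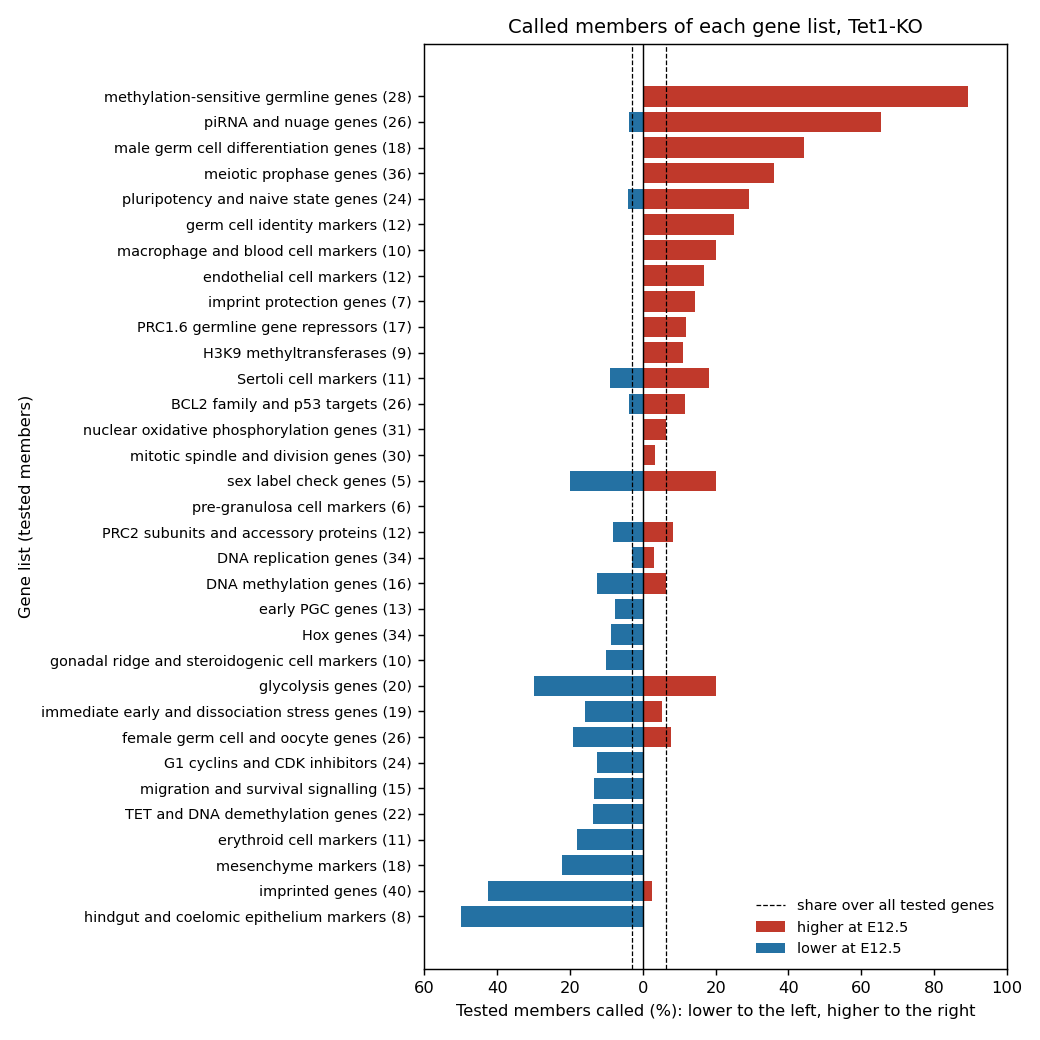
Share of the tested members of each of 33 gene lists called higher (red, to the right) or lower (blue, to the left) at E12.5 in Tet1-KO, in percent, with the number of tested members after each name. Dashed lines mark the shares over all tested genes, 6.23% higher and 2.86% lower, and the 4 longest bars to the right belong to methylation-sensitive, piRNA, male differentiation and meiotic genes.

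The 10 largest rises by fitted ratio, among genes of at least 5 CPM, all had no count in either E10.5 library, so their folds are lower bounds set against 3 counts per library. Spats2l was at 16.9 and 18.3 CPM at E12.5, at least 95.3-fold higher. Akr1cl, an aldo-keto reductase, Agtr2, the type 2 angiotensin receptor, Arhgap8 and Usp26, an X-linked testis deubiquitinase, were at least 81.8-, 79.8-, 74- and 59.8-fold higher. Usp26 was at 9.93 and 12.2 CPM at E12.5 (adjusted p = 3.39e-06), and these 5 calls held with each library left out. Nat8f2, Spp1 (osteopontin), Abcc2 and Plekhg4 were at least 40.8-, 38.7-, 35.1- and 35.1-fold higher. Of these 4, Nat8f2 lost its call without E10.5 replicate 2 (adjusted p = 0.0561). Among the 10 largest falls, Xist, the RNA that silences the X chromosome in females, was at 12.1 and 23.0 CPM in the unsexed E10.5 pools and at 0 in both male libraries, at least 77.5-fold lower (adjusted p = 0.00102). Scnn1g, a subunit of the epithelial sodium channel, was at 18.4 and 11.7 CPM at E10.5 and at 0 at E12.5, at least 66.4-fold lower (adjusted p = 0.0186). The channel's Scnn1b subunit, Ibsp, Wnt2, Magel2, Sst and Bcam were also at 0 at E12.5, at least 24.5- to 41.8-fold lower. Slpi was at 37.2 and 15.4 CPM and then at 0 and 0.0667 CPM. Hand1, a transcription factor of lateral mesoderm and of the BMP response, was at 14.4 and 38.6 CPM and then at 0.168 and 0 CPM (adjusted p = 7.85e-04). Apart from Xist and Hand1, each of these falls lost its call without at least 1 library: all 8 without E12.5 library b, 7 of them without library a, Scnn1b, Ibsp and Magel2 also without E10.5 replicate 2, and Magel2 without E10.5 replicate 1, with adjusted p values up to 0.209.

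The same interval in wild-type PGCs, which shares no library with the Tet1-KO comparison, gave 1660 calls (9.45%), 1124 higher (6.4%) and 536 lower (3.05%). Of the 1094 rises in Tet1-KO 473 were also called higher in the wild type, which is 43.2% of the Tet1-KO rises and 42.2% of the wild-type rises, and 3 were called lower. Of the 503 falls 182 were also called lower, 36.2% and 34% of the 2 lists, and 1 was called higher. A gene called in 1 genotype is not shown to differ between them, so the difference of the changes was tested in the same fit. It was called for 42 genes (0.239% of those tested), 29 with a higher change in Tet1-KO (0.165%) and 13 with a lower one (0.074%), and 2171 genes had an unadjusted p under 0.05. Of the 28 methylation-sensitive germline genes 1 was called, Tuba3b, at 0 in both E10.5 wild-type libraries and at 18.7 and 20.7 CPM in E12.5 wild-type males, with a lower change in Tet1-KO (adjusted p = 0.03). That call was lost when any 1 of the 8 libraries other than E10.5 Tet1-KO replicate 1 was left out (adjusted p up to 0.118). The difference lay below 0 in 22 of the 28, with a median of -0.97, against a median of 0 over all tested genes. It also lay below 0 in 12 of 12 germ cell identity markers (median -0.94) and 13 of 13 early PGC genes (median -0.95). For 24 pluripotency genes it did in 21 (median -0.74), and for 18 male germ cell differentiation genes in 7 (median 0.14). Dazl, Ddx4, Asz1, Mael and Sycp1 were not called. Dazl was at 4.58 and 18.9 CPM in the wild type at E10.5 and at 1049 and 1404 CPM in E12.5 males, and the difference of its log2 changes was -0.92 (adjusted p = 0.564). Sycp3 was at 2.32 and 2.11 CPM and then at 37.9 and 38.5 CPM in the wild type, a larger rise than in Tet1-KO that missed the threshold (adjusted p of the difference = 0.0503). For Stag3, the meiotic cohesin, the wild-type libraries went from 19.6 and 24.4 CPM to 162 and 207 CPM, and the change was smaller in Tet1-KO (difference of the log2 changes -1.70, adjusted p = 0.0232), with the E10.5 libraries labelled Tet1-KO above both wild-type ones and the E12.5 libraries close. Tdrd7, a tudor protein of the nuage, followed the same order, with 4.66 and 2.96 CPM at E10.5 in libraries labelled Tet1-KO, 0.678 and 0.162 CPM in the wild type, and 8.27 to 13.3 CPM in the 4 E12.5 male libraries (difference of the changes -3.60, adjusted p = 0.0255). The germ cell identity markers differed between the genotypes at E10.5 as well, with sums of 7398 and 4862 CPM in libraries labelled Tet1-KO and 2250 and 1752 CPM in the wild type, and of 7797 and 7888 CPM and 5527 and 6671 CPM in E12.5 males. The mesenchyme sums given above were higher in the wild type at both stages, and the part of either in these differences was not tested. Zfp128, Plekhg4, Spp1, Gatm and Ptprj had no count in the E10.5 libraries labelled Tet1-KO and 1.24 to 15.0 CPM in E10.5 wild type. The call for Stag3 was lost without E10.5 wild-type replicate 1, E12.5 male wild-type replicate 2 or either E12.5 male Tet1-KO library (adjusted p up to 0.0943), and that for Tdrd7 was lost without E10.5 wild-type replicate 2, either E12.5 male wild-type library or either E12.5 male Tet1-KO library (adjusted p up to 0.0895). Over all genes the count of called differences was 242 without E10.5 Tet1-KO replicate 1, 251 without replicate 2, 67 without E10.5 wild-type replicate 1, 5 and 10 without E12.5 male wild-type replicates 1 and 2, and 12 and 10 without E12.5 male Tet1-KO libraries a and b. A fit of these 8 libraries alone called none, with 1774 genes at an unadjusted p under 0.05, against 482 by DESeq2 in the full set.

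**Figure D5:**
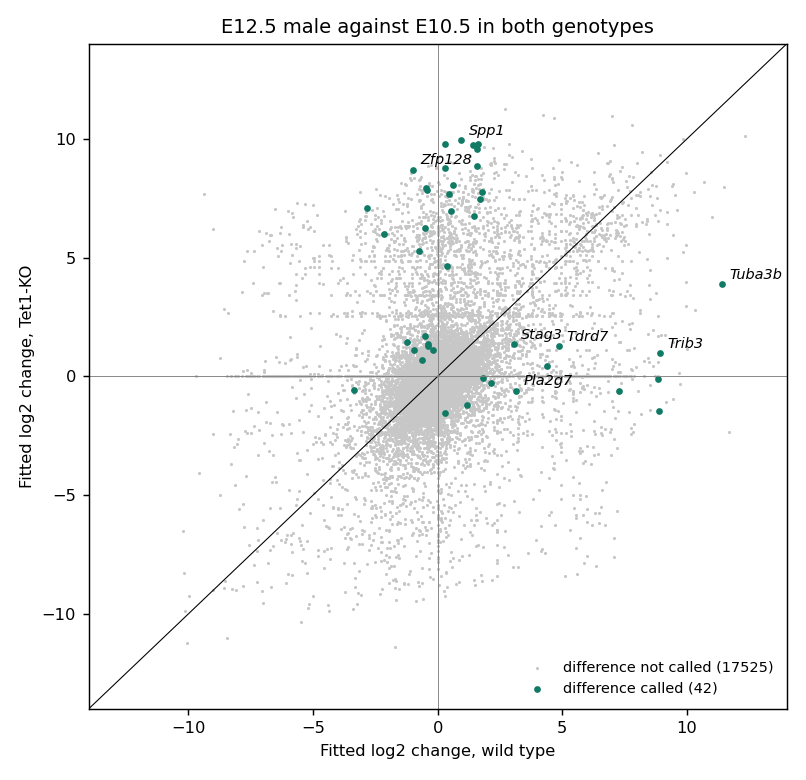
Fitted log2 change from E10.5 to E12.5 male in wild type (horizontal) and Tet1-KO (vertical) for each tested gene, with the 42 genes whose difference of changes was called in green and the line of equal change in black. Fitted values far from 0 belong to genes with few or no counts in 1 group, such as Zfp128 and Spp1, which lie near 0 in the wild type.

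E12.5 male and female Tet1-KO PGCs were compared directly, since both changes start from the same E10.5 libraries. Of the tested genes 70 (0.398%) differed, 34 higher in the male (0.194%) and 36 higher in the female (0.205%), and 1454 had an unadjusted p under 0.05. The Y-linked genes Uba1y, Eif2s3y, Ddx3y, Uty and Kdm5d were the 5 largest in the male direction, with 146 and 134 CPM of Uba1y in the male and 0 in both female libraries. Uba1y had been at 6.65 and 3.94 CPM in the unsexed E10.5 pools, so it rose by 4.73 on the log2 scale, whereas Ddx3y was at 33.7 and 47.8 CPM and then at 62.0 and 50.03 CPM (adjusted p = 0.419). Lefty1 and Lefty2 were at 2.77 and 5.00 CPM and at 17.7 and 9.66 CPM in the female, below the male by log2 4.93 and 4.72 (adjusted p = 0.0164 and 0.0152). The calls of Lefty1 and Lefty2 between the sexes were lost without either female library or without male library a (adjusted p up to 0.203 and 0.283). In the other direction Phlda2 was at 398 and 438 CPM in the female against 18.8 and 12.01 CPM in the male (log2 -4.77, adjusted p = 0.00122, and at most 0.0244 with 1 library left out), which differs from the other imprinted genes that fell, none of which was called between the sexes. Msx2 was at 32.4 and 25.4 CPM in the female (log2 -3.35, adjusted p = 0.0101, and up to 0.132 without either female library or male library b), and Zglp1 was at 66.6 and 68.4 CPM in the female against 13.6 and 14.7 CPM (adjusted p = 0.0115, and up to 0.181 without any of the 4 libraries in turn). Dazl, Ddx4, Asz1 and Sycp3 were not called between the sexes (adjusted p = 0.926, 0.912, 0.973 and 0.663). The mesenchyme marker sum was 160 and 166 CPM in the female libraries against 353 and 239 CPM in the male. The count of differences was 15 and 8 without female libraries a and b, and 21 and 28 without male libraries a and b. It was 5 with the mesenchyme covariate, 341 by DESeq2, 439 without the filter on low counts and 607 when only the male and female Tet1-KO groups were fitted.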

How the data were processed

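The authors deposited 1 table of raw read counts per gene for 20 libraries of the Tet1 crosses, and whole numbers fill it. Per the submitters' processing notes, Trimmomatic, TopHat2 2.0.2, Bowtie 0.12.8 and HTSeq 0.5.3p9 were used with the mm9 genome. Whether counting used strand, and how multiply aligned reads were handled, is not given in the sources used here, so antisense partners and near-identical copies could share reads. Symbols were found for 32919 of 37991 genes. Library totals bound the precision of low counts. The fold bounds cover counting error only, and amplified reads are not independent molecules. The SE values come from the quasi-likelihood fit and include the spread between libraries.

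Counts were analysed with R 4.3.3 and edgeR 4.0.16 (limma 3.58.1, DESeq2 1.42.0 as an alternative) and plotted with matplotlib 3.10.9. Genes passing filterByExpr (minimum count 10, minimum total 15) were scaled by TMM and fitted with 1 coefficient for each of 10 groups (robust quasi-likelihood, 10 residual degrees of freedom). Calls required p below 0.05 after Benjamini-Hochberg adjustment over the 17567 genes of each comparison. Folds against a group at 0 use 3 counts per library. The methods were tested on simulated data, in which 2.08% of edgeR's calls and 21.4% of DESeq2's calls were false. Neither method recovered all of the changes set there, and DESeq2 recovered more of them. The columns of E12.5 Tet1-KO share 1 header per group, so these libraries are called a and b in table order. The 2 libraries of another cross were not analysed here. The list members Spata22, Lhx8, Snrpn, Cdkn2d, Ahsp and Hoxd4 were not matched to a row. A few genes that the rule below names are not reported here.

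The comparison, the gene lists and the tests were chosen with earlier results of these data known. Named genes are the 10 largest called rises and falls without overlap between the stages and with a mean of at least 5 CPM in the higher group, the 5 largest per direction of the other comparisons, up to 4 called members of each list, a fixed set of germ cell and methylation genes, and further list members for their role.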

Additional observations from a re-analysis of the deposited data

Results flagged for a closer look

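The change from E10.5 to the E12.5 testis differed between Tet1-KO and wild type for 42 genes by the test of the difference itself. Among the genes named by rule, the fitted difference (change in Tet1-KO minus change in wild type, log2) was 9.70 for Zfp128, 9.49 for Plekhg4, 8.99 for Spp1, 8.32 for Gatm and 8.26 for Ptprj, all without a count in both E10.5 libraries labelled Tet1-KO, so these values depend on the prior count and are no bounds. It was -7.97 for Trib3, -7.51 for Tuba3b, -3.74 for Pla2g7, -3.60 for Tdrd7, -2.39 for Mapk13 and -1.70 for Stag3. Tuba3b had no count in either E10.5 wild-type library, so its value depends on the prior count as well. The difference of Trib3 stayed called with each of the 8 libraries left out. Stag3 lost its call without E10.5 wild-type replicate 1, E12.5 male wild-type replicate 2 or either E12.5 male Tet1-KO library (adjusted p up to 0.0943). Each of the others lost its call without E12.5 male wild-type replicate 1, with an adjusted p of 0.059 for Zfp128, 0.0655 for Plekhg4, 0.134 for Spp1, 0.142 for Gatm, 0.0693 for Ptprj, 0.0742 for Tuba3b, 0.0693 for Pla2g7, 0.0742 for Tdrd7 and 0.0618 for Mapk13, and all of these but Plekhg4 also without replicate 2 and some without other libraries.

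Male and female Tet1-KO PGCs at E12.5 differed in 70 genes. The log2 difference, male minus female, was 14.23 for Uba1y, 12.80 for Eif2s3y, 10.72 for Ddx3y, 9.93 for Uty and 9.42 for Kdm5d, which are on the Y chromosome. It was 4.93 for Lefty1 and 4.72 for Lefty2, 2.22 for Nr2f2 and 2.58 for Col3a1, both mesenchyme markers, and -1.61 for Phf19, a PRC2 accessory protein. It was -6.28 for Hand1, -4.77 for Phlda2, -4.35 for Aqp3, -3.35 for Msx2 and -3.14 for Cldn6. Uba1y, Eif2s3y, Ddx3y, Uty and Phlda2 stayed called with each of the 4 libraries left out. Hand1, Aqp3, Cldn6, Phf19 and Nr2f2 were called in none of those 4 fits (adjusted p up to 0.218, 0.304, 0.394, 0.383 and 0.296). Lefty1, Lefty2 and Col3a1 lost their calls without either female library or male library a (adjusted p up to 0.203, 0.283 and 0.365). Msx2 lost its call without either female library or male library b, and Kdm5d without either female library (adjusted p up to 0.132 and 0.0729).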

How the results depend on the processing

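With DESeq2's size factors in edgeR the 3 comparisons gave 1525, 46 and 67 calls in place of 1597, 42 and 70, 1453 of the 1525 being genes called before. DESeq2's Wald test called 2702, 482 and 341 genes, and a fit without the filter on low counts called 2499, 615 and 439. Fits of only the groups compared called 25, 0 and 607, with fewer residual degrees of freedom, separate filters and separate estimates of the spread between libraries. With the mesenchyme marker level as a covariate the counts were 50, 10 and 5, and the log2 changes of Uhrf1 and Cdkn1c turned to 0.28 and 0.17, neither called. The cause was not tested. Leaving out 1 library gave 634 to 2043 calls for the change in Tet1-KO, 5 to 251 for the difference between genotypes and 8 to 28 for the difference between the sexes. In such fits the group with 1 library is assumed to vary like the others, and the filter keeps 18946 to 19134 genes. Of the 112 named genes called in the change, 1 lost its call with DESeq2's size factors, 3 with DESeq2, 103 of 111 in the fit of 4 libraries and 96 with the covariate. No paired analysis was possible because the columns of E12.5 male Tet1-KO carry no replicate number of their own, so the planned replicate block was not run. With 2 libraries a group, depth and pooling limit what low-count genes can show, and a gene not called is not shown to be unchanged.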
